A study of Sus scrofa with 48 samples.

Results

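The genes described here are those of the swine leukocyte antigen (SLA) complex and of the machinery that loads peptides on its products, as measured in longissimus muscle of growing pigs. They were taken as the array features whose gene name, or bracketed symbol in the description, began with SLA- or was B2M, TAP1, TAP2, TAPBP, CIITA, NLRC5, CALR, PDIA3, CANX or IFI30. This rule found 85 probes, and 83 of them, under 23 gene names, reached the scanner's well-above-background flag on 12 or more of 48 arrays and were tested, among 42125 tested probes in all. The 83 probes held 23 probes of 6 class I genes, 30 probes of 8 class II names and 30 probes of 9 presentation genes. Another SLA-6 probe and another SLA-DOB probe did not reach 12 arrays, and no probe was found under the name CIITA. Of the tested members, 76 were well above background on all 48 arrays and 7 on fewer, down to 12 arrays for SLA-7.

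The 48 pigs were barrows from a pair of purebred Large White lines selected in opposite directions for residual feed intake (RFI), the part of feed intake not explained by growth and maintenance. Low RFI pigs (RFIneg) eat less than predicted and high RFI pigs (RFIpl) eat more. In each line, 12 pigs received a diet high in fat and fiber (HF) and 12 a diet low in fat and fiber (LF), and all were fed ad libitum. Each pig had its own one-colour array, so that a group holds 12 samples and a line 24. Each direction of selection is represented by 1 line, and the labels do not give the kinship of the pigs or their SLA alleles. Effects of selection on RFI and of chance drift between the lines therefore cannot be told apart. The labels do not give the age of the pigs.

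Class I molecules are made by nearly all nucleated cells. A heavy chain, encoded by SLA-1, SLA-3 and other genes of the complex, pairs with beta-2 microglobulin (B2M) and shows peptides of the cell's own proteins to cytotoxic T cells. TAP1 and TAP2 carry the peptides into the endoplasmic reticulum, where TAPBP, CALR, PDIA3 and CANX help to fold and load the heavy chain, and NLRC5 is the transactivator of class I genes. Class II molecules, built from the alpha and beta chains of the DR and DQ pairs, are made mainly by macrophages, dendritic cells and B cells and show peptides of engulfed proteins to helper T cells. SLA-DM helps to load them, SLA-DO restrains SLA-DM, and IFI30 is a lysosomal reductase that opens disulfide bonds of engulfed proteins. In the RefSeq gene table of the Sscrofa11.1 assembly, the SLA genes, TAP1, TAP2 and TAPBP lie on chromosome 7, with TAP2 and TAP1 between SLA-DOB and SLA-DMB. In that table B2M and PDIA3 lie on chromosome 1, IFI30, CALR and CANX on chromosome 2 and NLRC5 on chromosome 6. The array files name no genome build, so no coordinates are given.

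The SLA genes are highly polymorphic and resemble each other, and many of the 60-base probes overlapped. Among the tested members 31 probes formed 18 overlapping pairs that shared at least 20 positions, 7 pairs with no differing base and 11 with 1 or more. The sequences below, written 5′ to 3′ from the array files, are shown because their signals carry the results on line and locus. The first pair, named SLA-DQA (A_72_P763148) and SLA-DQA1 (A_72_P743257), shared 59 positions and differed at the 5 bases in capitals. RefSeq lists SLA-DQA as a synonym of SLA-DQA1.
SLA-DQA A_72_P763148: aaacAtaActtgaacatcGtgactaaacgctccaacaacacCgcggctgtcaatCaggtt
SLA-DQA1 A_72_P743257: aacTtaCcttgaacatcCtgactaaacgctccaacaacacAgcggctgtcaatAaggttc
The next pair, named SLA-1 and SLA-3, shared 59 positions and differed at the 4 bases in capitals, which shows how little separates probes of these loci.
SLA-1 A_72_P440391: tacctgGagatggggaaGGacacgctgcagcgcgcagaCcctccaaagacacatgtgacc
SLA-3 A_72_P440386: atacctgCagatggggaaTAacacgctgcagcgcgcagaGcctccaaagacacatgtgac
The probes with the largest difference between the lines among those named SLA-3 and SLA-5 are shown without capitals.
SLA-3 A_72_P517623: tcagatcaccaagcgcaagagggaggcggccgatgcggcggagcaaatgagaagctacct
SLA-5 A_72_P414498: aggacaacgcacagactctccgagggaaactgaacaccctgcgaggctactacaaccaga
The last sequences are 30-base stretches of a pair of SLA-1 probes whose line differences had opposite signs. They differed at the 2 bases in capitals within 43 shared positions.
SLA-1 A_72_P035616: gggatAataaatgagagatttcctTagttt
SLA-1 A_72_P124686: gggatGataaatgagagatttcctAagttt

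Most class I probes were called higher in muscle of high RFI pigs, as were most probes of B2M and both of IFI30. Most class II differences were also above 0, but most did not pass the test. Of the 83 tested members 37 differed between the lines, 44.6% against 16.4% of all tested probes (limma, Benjamini-Hochberg adjusted p under 0.05). Of these, 36 were higher in high RFI pigs and 1 was lower, whereas 6.57% of all tested probes were called higher and 9.85% were called lower. By class, 17 of 23 class I probes differed, 16 higher and 1 lower, 8 of 30 class II probes differed, all higher, and 12 of 30 presentation probes differed, all higher. Under other processing settings the class II count lay between 4, without the filter on dim probes, and 11 of 28, with probes well above background on all arrays. In these settings 6.42% and 18.9% of all tested probes were called. The median line difference, high minus low RFI on the log2 scale, was 0.56 for class I, 0.24 for class II and 0.27 for presentation probes, against -0.03 for all tested probes. Differences above 0 were found at 19 of 23 class I, 28 of 30 class II and 23 of 30 presentation probes, beside 17590 of 42125 tested probes. The difference between classes was not tested, since probes of 1 gene, and overlapping probes of different genes, do not count as independent. Of the 36 probes called higher, 28 had a higher mean in high RFI pigs on each of the 6 slides, each of which held 2 arrays of every group. The slides hold the same arrays that gave the calls, so this count is in part built in and is no separate support. The ranges of the lines overlapped at all 83 probes, and the share of all tested probes that overlapped was not counted.

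**Figure D1:**
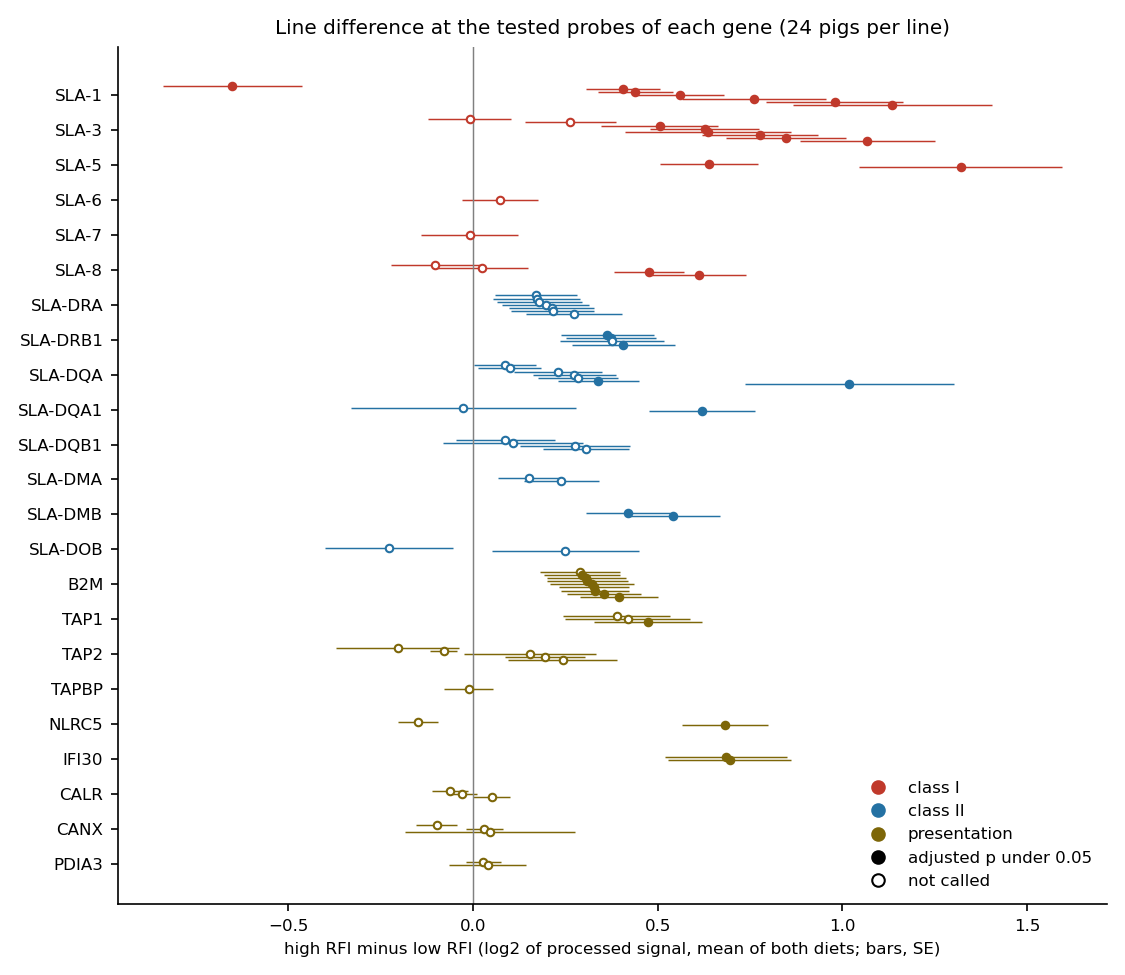
Line difference (x axis, log2 scale, high minus low RFI) at each of the 83 tested probes, grouped by gene, with bars for the SE and 24 pigs per line. Filled points passed the adjusted p of 0.05 and open points did not. The 16 class I points called higher lie between 0.41 and 1.32, the class II points of SLA-DRA lie between 0.17 and 0.27, and a single called point, of SLA-1, lies below 0 at -0.65.

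The largest line difference was that of SLA-5, a class I gene for which RefSeq gives SLA-1 as a synonym. At the SLA-5 probe A_72_P414498, pigs fed the HF diet had lowest, median and highest centred log2 signals of -1.66, -0.73 and 1.04 in the low RFI line and -1.52, 1.35 and 2.26 in the high RFI line. This signal is the log2 of the spot's brightness relative to the mean of its array. On the LF diet these values were -1.32, -0.31 and 1.16 in low RFI pigs and -1.16, 1.06 and 2.31 in high RFI pigs. The high RFI median was above every low RFI value on the HF diet and below the highest on the LF diet. Of the 24 high RFI pigs, 12 were above every low RFI pig of either diet. The line difference was 1.32 ± 0.275 (SE), or 2.50-fold, with an adjusted p of 0.000807 in limma, and 20 of 24 high RFI pigs exceeded the low RFI mean. The brightest SLA-5 probe, A_72_P441848, differed by 0.64 ± 0.131 (SE, adjusted p = 0.000717 in limma).

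SLA-3, a classical class I heavy chain gene, had 8 tested probes, 6 of which were called higher in high RFI pigs. At A_72_P517623 pigs fed the HF diet had lowest, median and highest centred log2 signals of 0.15, 1.0 and 2.17 in low RFI and 1.11, 2.22 and 3.06 in the high RFI line. With LF feeding the values were 0.07, 1.17 and 2.52 in low RFI and 1.07, 2.30 and 2.81 in high RFI pigs. The high RFI median was above the highest low RFI value on the HF diet and below it on the LF diet, and the ranges overlapped. The line difference was 1.07 ± 0.183 (SE), or 2.1-fold, with an adjusted p of 6.79e-05 in limma, the smallest among the members. It was 0.97 within the first scan day and 1.16 within the second. The probes that start at positions 655, 816, 1248, 1549 and 1550 of the transcript differed by 0.85, 0.78, 0.63, 0.64 and 0.50. The brightest SLA-3 probe, A_72_P682906 at position 1407, differed by 0.26 ± 0.123 (SE, adjusted p = 0.136 in limma), and the probe at 1425 by -0.01 (adjusted p = 0.968 in limma). The latter probes share 42 positions without a differing base, and neither was called.

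SLA-1, the other classical class I gene tested here, had 7 probes, of which 6 were called higher and 1 lower in high RFI pigs. At its brightest probe, CUST_238_PI427286967, pigs fed the HF diet had lowest, median and highest centred log2 signals of 7.25, 7.87 and 8.44 in low RFI and 7.74, 8.36 and 8.91 in the high RFI line. Pigs fed the LF diet had 7.44, 7.81 and 8.62 in low RFI and 7.80, 8.48 and 8.86 in high RFI pigs. The line difference was 0.44 ± 0.102 (SE), or 1.36-fold, with an adjusted p of 0.00239 in limma. The array describes this probe as another gene, PDLIM7, but it shares 58 positions, with 1 differing base, with the SLA-1 probe CUST_30_PI427286967, whose difference was 0.41 ± 0.1 (SE, adjusted p = 0.00423 in limma). Without it 16 of 22 class I probes were called. The largest SLA-1 differences were 1.14 ± 0.269 (SE, adjusted p = 0.00296 in limma) at CUST_366_PI427286967 and 0.98 ± 0.185 (SE, adjusted p = 0.00026 in limma) at A_72_P440391.

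The SLA-1 probe called lower, A_72_P124686, had lowest, median and highest centred log2 signals of 2.68, 3.78 and 4.59 in low RFI and 1.64, 3.03 and 4.31 in high RFI pigs given HF. In LF pigs these were 2.44, 3.82 and 4.56 in low RFI and 2.15, 2.79 and 4.44 in high RFI pigs. The high RFI medians were the lower ones on both diets. The difference was -0.65 ± 0.188 (SE, adjusted p = 0.0134 in limma), and only 4 of 24 high RFI pigs exceeded the low RFI mean. Its partner A_72_P035616, shown above with 2 differing bases in the shared stretch, differed by 0.76 ± 0.195 (SE, adjusted p = 0.00564 in limma), in the opposite direction. Within each pig, the log2 signal of A_72_P035616 minus that of A_72_P124686 was 1.93 to 5.74 in low RFI pigs, with a median of 3.64, and 3.08 to 6.02 in high RFI pigs, with a median of 5.22. In 9 of 24 low RFI pigs this gap was below that of every high RFI pig. This pair was picked for its opposite signs, so the gap is given without a test. The alleles that the probes match were not measured, and their part in the signals was not tested.

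**Figure D2:**
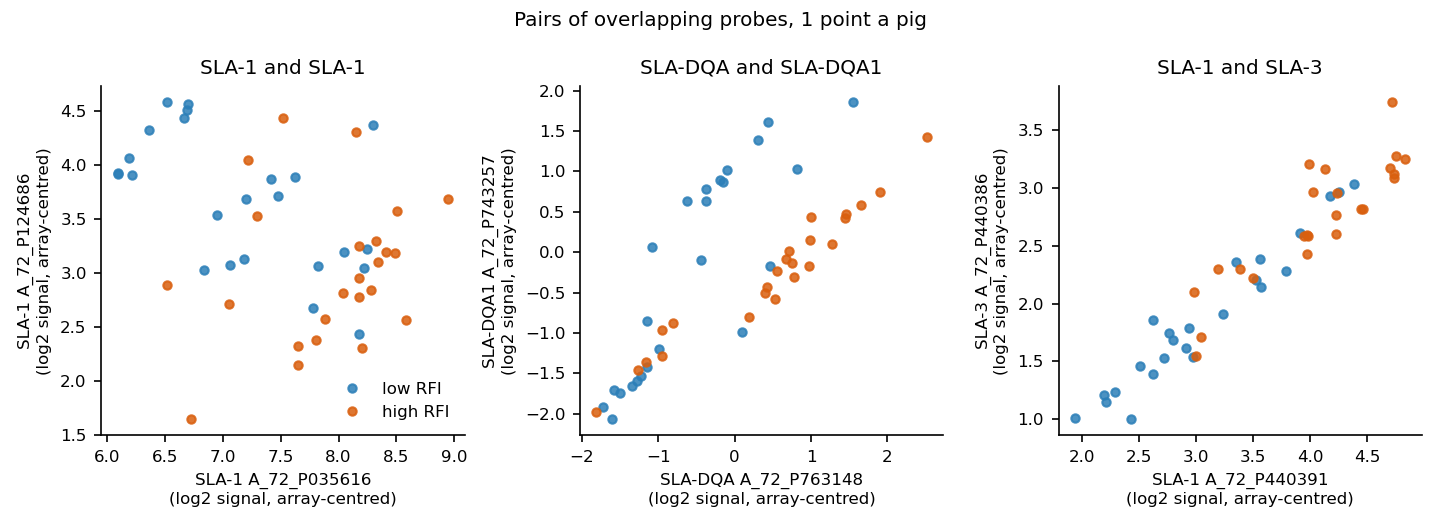
Centred log2 signal of 3 pairs of overlapping probes, 1 point per pig, with low RFI pigs in blue and high RFI pigs in orange. The SLA-1 pair (left) does not follow 1 line, the SLA-DQA pair (middle) falls into separate bands, and the SLA-1 and SLA-3 probes (right), which differ at 4 bases of 59, lie along 1 band.

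The non-classical class I genes, whose products have narrower roles, gave calls at SLA-8 alone. SLA-8 was called higher at the probes that start at 265 and 909, by 0.61 ± 0.128 (SE, adjusted p = 0.000867 in limma) and 0.48 ± 0.0954 (SE, adjusted p = 0.000529 in limma). Its probes at 310 and 312, which share 58 positions with 1 differing base, differed by 0.02 and -0.10 and were not called. SLA-6 differed by 0.07 ± 0.102 (SE, adjusted p = 0.667 in limma). SLA-7 was near background, above it on 5 arrays of low RFI and 7 of high RFI pigs, and differed by -0.01 ± 0.131 (SE, adjusted p = 0.974 in limma). Since class I probes overlap and RefSeq gives SLA-1 as a synonym for SLA-3 and SLA-5, the locus that each class I probe measures is uncertain.

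B2M, the light chain shared by class I molecules and encoded outside the SLA complex, was higher in high RFI pigs at 8 of its 9 probes. At the brightest, CUST_232_PI427286967, pigs fed the HF diet had lowest, median and highest centred log2 signals of 5.94, 6.65 and 7.18 in low RFI and 6.58, 7.02 and 7.54 in the high RFI line. On the LF diet they were 6.30, 6.66 and 7.53 in low RFI and 6.52, 6.93 and 7.43 in high RFI pigs. The lowest high RFI value was above the lowest low RFI value on both diets, and the highest value on the LF diet was that of a low RFI pig. The line difference was 0.33 ± 0.0915 (SE), or 1.26-fold, with an adjusted p of 0.0103 in limma. Over the 9 probes the differences lay between 0.29 and 0.39, the latter at CUST_218_PI427286967 (adjusted p = 0.00757 in limma), and the probe not called, A_72_P748495, had an adjusted p of 0.0569 in limma. All 9 were higher in high RFI pigs on each of the 6 slides, which hold the same arrays as the test.

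**Figure D3:**
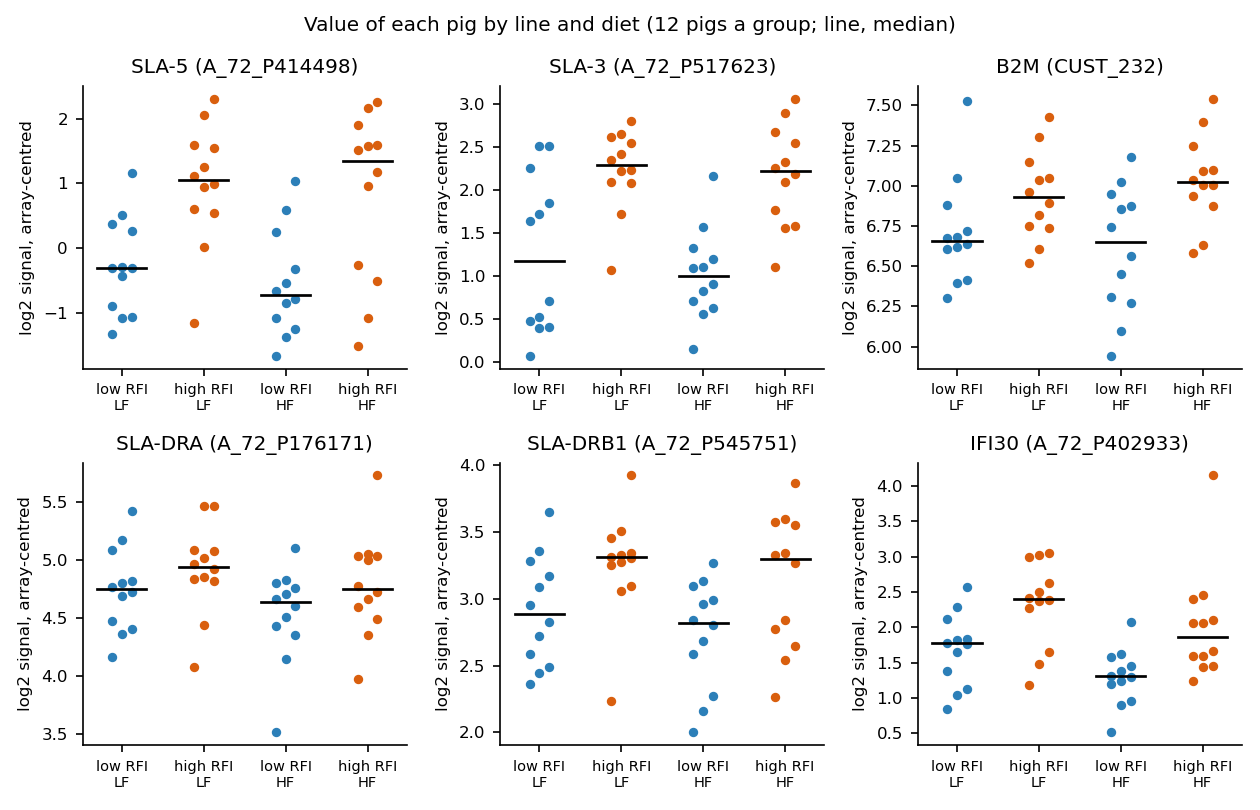
Centred log2 signal of each pig (points) by line and diet at 6 probes, with the median of each group of 12 as a black line. High RFI medians exceed low RFI medians on both diets in each panel, by most for SLA-5 and SLA-3, and every panel shows overlap between the lines.

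The transporter and loading genes gave few calls. TAP1 differed by 0.39 ± 0.145 (SE, adjusted p = 0.0572 in limma) at its brightest probe, O4777, and by 0.42 (adjusted p = 0.0811 in limma) at A_72_P223837. The other probe, A_72_P172206, was called higher by 0.47 ± 0.146 (SE, adjusted p = 0.0208 in limma), with 16 low RFI and 23 high RFI arrays well above background. This call was lost with normexp, a background correction that keeps signals positive (0.10, adjusted p = 0.247 in limma) and in the deposited log2 table (0.19, adjusted p = 0.0881 in limma). None of the 5 TAP2 probes was called, and 1 had an unadjusted p under 0.05, beside 13071 of 42125 tested probes (limma). The TAP2 differences ranged from -0.20 to 0.24, with -0.08 ± 0.0368 (SE, adjusted p = 0.131 in limma) at the brightest. TAPBP, which bridges the transporter and the heavy chain, differed by -0.01 ± 0.0666 (SE, adjusted p = 0.926 in limma). The general folding factors of the endoplasmic reticulum also gave no call. CALR differed by -0.03 ± 0.0385 (SE, adjusted p = 0.65 in limma), CANX by -0.10 ± 0.0561 (SE, adjusted p = 0.223 in limma) and PDIA3 by 0.04 ± 0.104 (SE, adjusted p = 0.835 in limma) at their brightest probes.

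The 2 NLRC5 probes disagreed. At O8413 pigs fed the HF diet had lowest, median and highest centred log2 signals of -4.14, -3.50 and -3.01 in low RFI and -3.45, -2.51 and -1.96 in the high RFI line. With LF feeding the values were -3.88, -3.12 and -1.78 in low RFI and -3.31, -2.71 and -2.30 in high RFI pigs. The groups overlapped least on the HF diet. The difference was 0.68 ± 0.117 (SE), or 1.60-fold, with an adjusted p of 7.28e-05 in limma and 22 of 24 high RFI pigs above the low RFI mean. This dim probe was well above background on 20 low RFI and 24 high RFI arrays, and its difference was 0.22 with normexp background correction and 0.33 in the deposited log2 table, called in both. The brightest NLRC5 probe, A_72_P527747, differed by -0.15 ± 0.0544 (SE, adjusted p = 0.0521 in limma). The files do not say whether the probes read different transcripts.

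Among class II genes, SLA-DRA, the alpha chain of DR, was not called at any of 7 probes. SLA-DRA had an unadjusted p under 0.05 at 1 of them, beside 13071 of 42125 tested probes (limma). At its brightest, A_72_P176171, pigs fed the HF diet had lowest, median and highest centred log2 signals of 3.51, 4.63 and 5.10 in low RFI and 3.97, 4.75 and 5.73 in the high RFI line. Pigs fed the LF diet had 4.16, 4.75 and 5.42 in low RFI and 4.07, 4.94 and 5.47 in high RFI pigs. The medians of the lines lay close together within wide ranges, and the difference was 0.22 ± 0.113 (SE, adjusted p = 0.188 in limma). SLA-DRB1, the beta chain of DR, was called higher at 3 of 4 probes, with differences between 0.36 and 0.41. At its brightest, A_72_P545751, pigs fed the HF diet had lowest, median and highest centred log2 signals of 2.0, 2.82 and 3.27 in low RFI and 2.26, 3.30 and 3.87 in the high RFI line. In LF pigs these were 2.36, 2.89 and 3.65 in low RFI and 2.24, 3.31 and 3.92 in high RFI pigs. The high RFI medians were above the low RFI medians, but 1 or more high RFI pigs on each diet were among the lowest. The difference was 0.37 ± 0.121 (SE), or 1.3-fold, with an adjusted p of 0.0282 in limma, and the other called probes were A_72_P626735 at 0.41 and A_72_P110316 at 0.36. The calls at A_72_P545751 and A_72_P626735 were lost when probes were not filtered on background (adjusted p = 0.0668 and 0.079 in limma).

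The DQ alpha chain gave the largest class II difference. At A_72_P763148 pigs fed the HF diet had lowest, median and highest centred log2 signals of -1.72, -0.81 and 0.81 in low RFI and -1.26, 0.64 and 2.52 in the high RFI line. On the LF diet they were -1.60, -0.17 and 1.55 in low RFI and -1.81, 0.70 and 1.66 in high RFI pigs. The lowest values of the lines lay close together, and 3 of 24 high RFI pigs were above every low RFI pig. The difference was 1.02 ± 0.283 (SE), or 2.03-fold, with an adjusted p of 0.0104 in limma. The probe A_72_P743257, which differs from it at 5 of 59 shared positions, differed between the lines by -0.03 ± 0.305 (SE, adjusted p = 0.965 in limma), with an SD of 1.29 in low RFI and 0.794 in high RFI pigs. Within each pig, the log2 signal of A_72_P763148 minus that of A_72_P743257 was 0.00623 to 1.17 in high RFI pigs, with a median of 0.87, and -1.25 to 1.09 in low RFI pigs, with a median of -0.26. In 13 of 24 low RFI pigs it was below that of every high RFI pig. The points of this pair fall into separate bands in the plot of overlapping probes, so no correlation is given for it, and the gap is given without a test because the pair was chosen on its values. Which DQ alleles the pigs carried was not measured, and their part in the gap was not tested. Of the other DQ alpha probes, A_72_P765361 was called higher by 0.62 ± 0.143 (SE, adjusted p = 0.00234 in limma) and A_72_P721473 by 0.34 ± 0.11 (SE, adjusted p = 0.0278 in limma). The 5 remaining DQ alpha probes differed by 0.09 to 0.29 and were not called, among them the brightest under the name SLA-DQA, A_72_P244477, with 0.29 ± 0.108 (SE, adjusted p = 0.0629 in limma). SLA-DQB1, the beta chain of DQ, differed by 0.31 ± 0.116 (SE, adjusted p = 0.0622 in limma) at its brightest probe and was not called at any of 4. Of these 4 probes 1 had an unadjusted p under 0.05, beside 13071 of 42125 tested probes (limma).

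The genes of the class II loading step also differed among themselves. SLA-DMB, the beta chain of DM, was called higher at both probes, by 0.54 ± 0.128 (SE, adjusted p = 0.00295 in limma) and 0.42 ± 0.114 (SE, adjusted p = 0.00853 in limma). The larger one, at A_72_P629649, was 0.29 with normexp background correction and 0.35 in the deposited log2 table, called in both. SLA-DMA, its alpha chain, differed by 0.15 ± 0.0849 (SE, adjusted p = 0.215 in limma) at the brightest probe and by 0.24 (adjusted p = 0.101 in limma) at the other. The SLA-DOB probes were well above background on 17 and 23 arrays, differed by -0.23 and 0.25 and were not called.

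IFI30 was called higher in high RFI pigs at both probes. At the brightest, A_72_P402933, pigs fed the HF diet had lowest, median and highest centred log2 signals of 0.52, 1.31 and 2.08 in low RFI and 1.24, 1.86 and 4.15 in the high RFI line. With LF feeding the values were 0.85, 1.77 and 2.57 in low RFI and 1.19, 2.40 and 3.05 in high RFI pigs. The highest value came from a single high RFI pig on the HF diet, well above the rest. The difference was 0.68 ± 0.166 (SE), or 1.61-fold, with an adjusted p of 0.00368 in limma. The other probe, A_72_P667411, differed by 0.70 ± 0.167 (SE, adjusted p = 0.00339 in limma). Of 11 further tested gene names of the class II pathway, at their brightest probes, 5 were called higher and none lower. The 6 others were not called, and the median difference was 0.19. Of all tested probes, 6.57% were called higher and 9.85% lower. Among the names not called were HLA-DRA at 0.19 and HLA-DQA1 at 0.03, human names for the DR and DQ alpha chains. Their probes are counted again below among histocompatibility probes under other names. The lysosomal protease CTSS differed by 0.75 (adjusted p = 0.00228 in limma) and the costimulatory receptor CD40 by 0.98 (adjusted p = 3.97e-07 in limma), whereas the invariant chain CD74 differed by 0.11 (adjusted p = 0.436 in limma). Of 13 tested class I pathway genes outside the rule, 1 was called higher, 2 were called lower and 10 were not called, with a median of 0.04. The one called higher, PSMB8, a subunit of the immunoproteasome, differed by 0.59 (adjusted p = 0.0383 in limma). Those called lower were PSME1, a proteasome activator, at -0.24 and RFX5, a promoter-binding factor, at -0.15.

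In whole muscle, more cells of a type and more RNA per cell cannot be told apart, so marker genes are given beside these values, each at its brightest probe unless stated. Of 11 tested macrophage and dendritic cell markers, 6 were called higher in high RFI pigs and none lower, with a median difference of 0.41. Their summed linear level ranged from 6.81 to 27.3 (median 14.2) in low RFI and 10.3 to 72.3, with a median of 20.3, in high RFI pigs. The median marker of the list was at the 56.1st percentile of brightness. CSF1R, which was called higher, lay at the 14.2nd percentile and CD68, which was not called, at the 7.64th. The dendritic cell marker XCR1 had the lowest difference, -0.13 (adjusted p = 0.149 in limma), and FLT3, CLEC9A and ITGAX had no tested probe. Of 5 B cell markers 2 were called higher and none lower, with summed levels of 11.2 to 15.5 and 10.8 to 15.6 in low and high RFI pigs. CD79A, which was not called, made up 92.2% of this sum, so the sum does not show the called CD79B and BLNK. CD79B lay at the 0.377th percentile of brightness, among the dimmest tested probes, and BLNK at the 40.7th. None of 10 T and NK cell markers was called in limma at its brightest probe, and 1 of their 19 probes, of KLRK1, was called lower. An unadjusted p under 0.05 was found at 3 of these 10 brightest probes, beside 13071 of 42125 tested probes for the line difference (limma). The summed levels of the T and NK cell markers were 18.2 to 23.4 and 18.3 to 23.6 in low and high RFI pigs. CD5 made up 64.4% of this sum. CD3D, CD3E, CD3G, CD2 and CD8A lay at or below the 30.4th percentile of brightness, so the sum does not show them. The general leukocyte marker PTPRC, at the 90.9th percentile of brightness, differed by -0.03 (adjusted p = 0.703 in limma). Its SD was 0.138 in low and 0.129 in high RFI pigs. CD5 and CD79A were also bright, at the 87.2nd and 86.3rd percentiles. Whether these bright probes follow the leukocyte content of muscle was not tested. Of 19 interferon response genes 3 were called higher and 1 lower, with a median of 0.17. Of 8 endothelial markers 1 was called higher, of 7 adipocyte markers 1, and of 7 fibroblast markers 2. The counts of all these marker lists stand beside 6.57% of all tested probes called higher and 9.85% called lower. The 12 skeletal muscle fibre markers, which define the tissue, were at or above the 86.6th percentile of brightness, and 3 of them were called lower in high RFI pigs, with a median of -0.11. Over all 82 probes of these genes 24 were called lower, in 8 of the 12 genes, and none higher. The part of cell content in the line differences of the SLA genes was not tested.

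Probes described as histocompatibility genes under other names gave 23 tested probes, of which 8 were called higher in high RFI pigs and none lower. Of all tested probes, 6.57% were called higher and 9.85% lower. Of the 12 described as class I, 7 were called higher, with a median difference of 0.64. Of the 10 described as class II, 1 was called higher, near the share of all tested probes, with a median of 0.15. The largest difference was 2.30 ± 0.385 (SE) at a probe described as a pig class I antigen, A_72_P414198. There the SD was 1.78 in low RFI and 0.659 in high RFI pigs.

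The diets gave no call among the 83 members, where 0.42% of all tested probes were called (limma). At an unadjusted p under 0.05, 6 members (7.23%, beside 13.1% of all tested probes) differed between the diets, 5 of them presentation probes, and the smallest adjusted p was 0.175. The diet difference, HF minus LF, was below 0 at 75 of 83 members, with a median of -0.11 for class I, -0.17 for class II and -0.08 for presentation probes, against 0.00192 for all tested probes. It ranged from -0.35 at IFI30 to 0.10 at TAP2, and none of these values passed the adjusted p of 0.05 in limma.

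The line difference was compared within each diet, in separate pigs. On the HF diet 19 of 83 members were called, all higher in high RFI pigs, beside 6.39% of all tested probes, and on the LF diet 2 were called, both higher, beside 2.47% of all tested probes. On the HF diet 11 of the called probes were class I, 2 class II and 6 presentation probes. The 2 called on the LF diet, A_72_P440391 of SLA-1 and A_72_P517623 of SLA-3, were also called on the HF diet. Without the filter on dim probes 5 members were called with HF feeding. The count in LF pigs lay between 1 and 12 over the alternatives tried. The difference had the same sign on both diets at 72 of 83 members, or 86.7%, compared with 70.6% of all tested probes. The median difference was 0.58 and 0.53 on the HF and LF diets for class I, 0.35 and 0.17 for class II, and 0.33 and 0.21 for presentation probes. Class II levels averaged within each pig, relative to all pigs, had HF medians of -0.13 in low and -0.05 in high RFI pigs. The LF medians were -0.07 and 0.25, so by this measure the larger class II gap was on the LF diet. The highest level of any pig, 1.18, raised the HF mean of the high RFI line, where the next was 0.50. For class I and presentation probes the larger gap stayed on the HF diet. The interaction of line and diet was not called for any member, nor for any tested probe (0% called, limma), and no member had an unadjusted interaction p under 0.05. A difference in response between diets was thus not shown, even though the counts of calls differ.

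**Figure D4:**
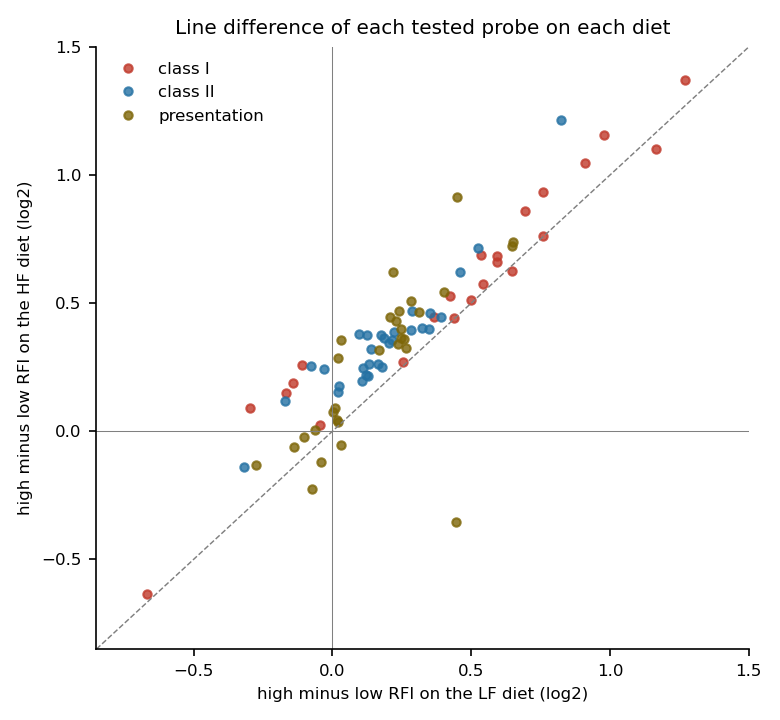
Line difference of each tested member on the LF diet (x axis) and the HF diet (y axis), both high minus low RFI on the log2 scale, coloured by class, with the dashed line marking equality. Class I points extend to 1.27 on the LF diet and 1.37 on the HF diet, and the SLA-1 probe A_72_P124686 lies farthest to the lower left. The presentation probe at 0.45 on the LF diet and -0.35 on the HF diet is O14408 of CANX, which was well above background on 17 of 48 arrays.

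Members also varied together among pigs of the same line and diet. In the deviations of the 48 pigs from their group means, 6 of 7 gene pairs, at their brightest probes, were correlated (two-sided permutation test, 100000 permutations, adjusted over the 7 pairs). For B2M and SLA-1 Pearson's r was 0.88 and Spearman's rho 0.90, for TAP1 and SLA-1 0.82 and 0.84, for SLA-DRA and SLA-DRB1 0.83 and 0.79, and for SLA-DRA and SLA-DQB1 0.80 and 0.80. For SLA-1 and SLA-DRA, which belong to different classes, they were 0.74 and 0.75, and for CD74 and SLA-DRA 0.90 and 0.85. Each of these permutation p-values was 1e-05, the smallest the permutations can give, with an adjusted p of 1.17e-05. NLRC5, at the probe A_72_P527747, and SLA-1 had an r of -0.01 (permutation p = 0.946, adjusted p = 0.946) and a rho of -0.02 (permutation p = 0.89, adjusted p = 0.89). Without the 2 pigs farthest from the median of the first gene, r ranged from 0.69 to 0.88 in the 6 pairs. Within the first scan day, with 24 pigs, r ranged from 0.68 to 0.82 in these pairs, and within the second from 0.80 to 0.96. The pairs share arrays and genes and are not independent of each other.

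**Figure D5:**
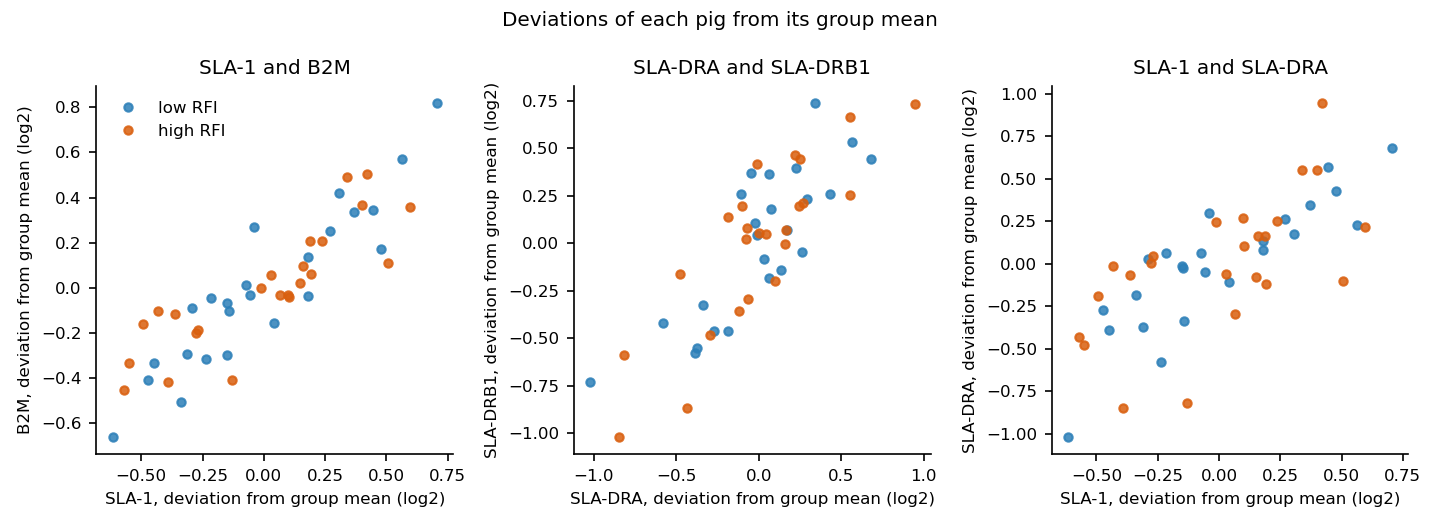
Deviation of each pig from the mean of its line and diet group (log2) for 3 pairs of genes at their brightest probes, low RFI in blue and high RFI in orange. Pigs high for SLA-1 were high for B2M (r = 0.88) and, with more scatter, for SLA-DRA (r = 0.74), and SLA-DRB1 followed SLA-DRA (r = 0.83).

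Facts of the whole array set bear on these values. The median processed signal of the arrays lay between 52.8 and 108, and 59.2% to 74.2% of the probes of an array carried the well-above-background flag. No spot reached saturation. The median SD within groups was 0.466 for class I, 0.419 for class II and 0.374 for presentation probes, beside 0.258 for all tested probes. Precision is limited by the number of pigs.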

How the data were processed

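Longissimus muscle RNA of 48 pigs was measured on one-colour 60 K arrays. The authors deposited scanner files, made with Feature Extraction 10.7.3.1, holding the background-subtracted intensity of each spot, and a log2 table, whose values were each spot's median intensity on the log2 scale after subtraction of the array median, for 34472 probes. The submitters' processing notes name R 2.10.0. Here, control and outlier spots were left out, spots of 1 probe were averaged, and log2 processed signals were expressed relative to the array's mean over the 42125 probes that were flagged well above background on 12 or more arrays. The 4 groups were fitted in 1 model with limma 3.58.1 in R 4.3.3, with Benjamini-Hochberg adjustment over all tested probes at 0.05. On simulated data for the line comparison (41957 probes, 200 changed), 84.5% of differences of 0.5 and 98% of differences of 1 were recovered. Of the calls, 1.74% and 7.11% were false. The changed probes were drawn from all tested probes, with independent noise. Their median SD within groups was 0.258, beside 0.466 for class I, so these rates may not hold for the members. Correlations used Python 3.11.15. RefSeq held the accession of 52 members, 45 of them under the same symbol.

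The members and gene lists were chosen with earlier results of these data known. Every gene is given at its brightest probe, with the 5 largest called line differences per class in each direction. Members other than these were named after their values were seen. Labels do not say whether pigs of a line are related. Alternatives changed the scaling, background correction, filter, outlier spots, blocks for slide and scan day, variance model and array weights.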

Additional observations from a re-analysis of the deposited data

How the results depend on the processing

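The 36 named line differences were recomputed under 12 alternatives, which gave 426 values. Of these, 401 kept their direction and their side of the threshold, 16 passed it newly, 4 no longer passed it and 5 changed sign. The sign changes were all at values near 0 that were never called. CALR turned to 0.00982 and TAPBP to 0.00754 with quantile normalization, TAPBP to 0.0177 with normexp background correction and to 0.000624 with probes well above background on all arrays, and SLA-7 to 0.00603 with array weights. Under these alternatives the count of members that differ between the lines lay within 1.5 times of 37, at 28 with no filter on dim probes and 43 with array weights. With 1 probe for each set of overlapping probes, an alternative chosen after seeing the data, 27 of 66 were called, all higher. With no filter on dim probes 4 class II probes were called instead of 8, 5 members on the HF diet instead of 19, and 1 on the LF diet instead of 2, over 60305 probes tested. Of all tested probes, 6.42% differed between the lines without this filter and 18.5% with array weights, beside 16.4% in the main setting. The shares of all probes within each diet are not given for the alternatives. The count on the LF diet also moved to 4 with quantile normalization, 6 with slide as a block, 4 with the deposited log2 table, 1 with an ordinary variance analysis and 12 with array weights. The members called on the LF diet thus depend on the setting, and the cause was not tested. TAP1 at A_72_P172206 was no longer called with normexp background correction (0.10) or the deposited table (0.19), and this probe is among the dim ones. TAP1 at O4777 passed the threshold under 6 alternatives and the NLRC5 probe A_72_P527747, lower in high RFI pigs, under 5. In class II, SLA-DQA at A_72_P244477 passed it under 4 and SLA-DQB1 at A_72_P039061 under 1. The class II count was 11 of 28 with probes well above background on all arrays and 10 of 30 with array weights. Of all tested probes, 18.9% and 18.5% were called in these settings. No diet difference or interaction was called under any alternative, and 6 of 7 correlations passed under both of theirs. No paired analysis was possible because the replicate numbers of the labels are not shared between groups. Depth is not given for arrays, and dim probes such as SLA-7, SLA-DOB and 1 of CANX were well above background on few arrays, which limits their values.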
